A study of Mus musculus with 6 samples.

Results

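Lin28a, Lin28b and 6 oncofetal genes that are classic targets of the let-7 microRNAs (Hmga1, Hmga2, Igf2bp1, Igf2bp2, Igf2bp3 and Arid3a) were examined in mouse embryonic stem cells that differ in the RNA-binding ubiquitin ligase Trim71. The 8 genes were chosen by name, from what is known of LIN28 and let-7, by a rule that uses no measured value but was set with earlier results of these data known. They are 8 of the 27179 gene identifiers in the count table, and all 8 passed the filter on low counts that left 14199 genes for testing. The series holds 6 poly(A)-selected RNA-seq libraries, 3 labelled WT and 3 labelled R783H, a Trim71 change that the series title links to hydrocephalus. Cells of both groups were of the ES-E14TG2a background, a mouse embryonic stem cell line. WT cells carried FLAG-Trim71 and R783H cells carried FLAG-Trim71 (R783H), so the FLAG tag is shared by both groups. Both were grown on gelatin in a medium with LIF and the kinase inhibitors CHIR99021 and PD0325901, the conditions known as 2i, with serum also present. The labels call the libraries replicates A, B and C and do not say whether they came from separate clones or cultures. The p-values therefore measure the spread between these libraries, which may be technical.

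LIN28A and LIN28B are RNA-binding proteins that bind the precursors of let-7 and block their maturation, in part by recruiting the terminal uridyltransferases TUT4 and TUT7, whose U-tails mark the precursor for the exonuclease DIS3L2. Mature let-7 accumulates as cells differentiate and represses mRNAs through sites in their 3′ UTRs, among them Lin28a, Lin28b, the Hmga genes, the Igf2bp genes and Trim71. Embryonic stem cells have high LIN28A and little mature let-7, and the products of these target genes are typical of embryonic tissue and of many tumours, hence the name oncofetal.

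The mature let-7 sequences are shown because all 8 genes hold matches to their shared seed, bases 2 to 8, in capitals here. Of the mature mouse miRNAs in the RefSeq annotation of GRCm38.p6, 11 had this seed: let-7a, b, c, d, e, f, g, i and k, miR-98 and miR-1961. The 4 printed differ outside the seed.
mmu-let-7a-5p: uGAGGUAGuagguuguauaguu
mmu-let-7d-5p: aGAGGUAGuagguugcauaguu
mmu-let-7g-5p: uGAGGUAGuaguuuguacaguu
mmu-miR-98-5p: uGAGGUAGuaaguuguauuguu

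Each of the 8 genes had at least 1 match to this seed in its annotated 3′ UTR. The 3′ UTRs are those of the protein-coding GENCODE M21 transcript with the longest 3′ UTR, on GRCm38 (the assembly also called mm10), and were searched on the mRNA strand. The motif of 7 bases is CTACCTC, the reverse complement of the seed. The motif of 8 bases, CTACCTCA, contains it and adds the A that lies opposite base 1 of the miRNA. A match is a run of letters and was not tested as a site. Of the 12844 tested genes with an annotated 3′ UTR, 10.8% had at least 1 match of 7 bases and 3.78% at least 1 of 8 bases. Printed below, 5′ to 3′ on the mRNA strand with the match in capitals, is the 8-base match nearest the stop codon, or for Hmga1 its only match, which has 7 bases.
Lin28a, chr4:134005189-134005211, minus strand: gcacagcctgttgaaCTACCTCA
Lin28b, chr10:45381022-45381044, minus strand: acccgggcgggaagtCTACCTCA
Hmga1, chr17:27563277-27563299, plus strand: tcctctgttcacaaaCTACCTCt
Hmga2, chr10:120364224-120364246, minus strand: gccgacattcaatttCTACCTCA
Igf2bp1, chr11:95961778-95961800, minus strand: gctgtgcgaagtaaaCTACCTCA
Igf2bp2, chr16:22059473-22059495, minus strand: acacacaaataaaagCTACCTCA
Igf2bp3, chr6:49086787-49086809, minus strand: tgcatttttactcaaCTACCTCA
Arid3a, chr10:79953895-79953917, plus strand: aaggcaagtttctttCTACCTCA

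The number of matches varied among the 8 genes. Lin28b, Hmga2 and Igf2bp1 had 4 matches of 7 bases each, in 3′ UTRs of 4445, 3014 and 6337 nt. Lin28a had 2 (2775 nt) and Arid3a had 2 (3082 nt). Hmga1 (1183 nt), Igf2bp2 (1784 nt) and Igf2bp3 (2119 nt) had 1 each. The match extended to 8 bases at 3 of the 4 places in Igf2bp1, at both in Lin28a, and at 1 place in every other gene except Hmga1.

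**Figure D1:**
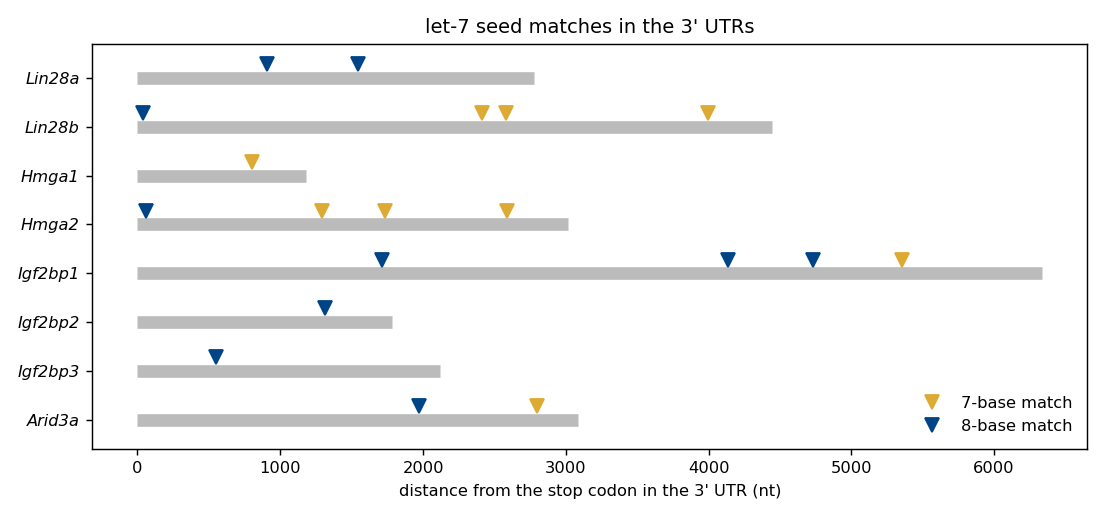
let-7 seed matches along the 3′ UTRs of the 8 genes; grey bars are the 3′ UTRs drawn to scale in nt from the stop codon, blue triangles are 8-base matches and yellow triangles are 7-base matches without the final A. Hmga1 has the shortest 3′ UTR (1183 nt) and a single 7-base match, and Igf2bp1 the longest (6337 nt) with 4.

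Total counts were 20894277 to 25174121 in the WT libraries and 27807385 to 29079670 in the R783H libraries, so the shallowest R783H library exceeded the deepest WT library. Levels below are given as CPM, a library's counts scaled to a common total, with TMM scaling, a correction for differences in library composition. At these depths 3 counts correspond to 0.0998 to 0.149 CPM. The groups were compared by the quasi-likelihood test of edgeR, p-values were adjusted over all 14199 genes by the Benjamini-Hochberg method, and a gene was called at an adjusted p below 0.05. The comparison moved much of the transcriptome: 64.5% of tested genes were called, 33.5% higher and 30.9% lower in R783H, around a median log2 fold change of 0.03. Trim71 itself was at 140.5 ± 16.4 CPM (SD, n = 3) in WT and 143.7 ± 12.8 CPM in R783H (log2 fold change 0.03, SE 0.08, edgeR adjusted p = 0.743), and its ranges overlapped. Its transcript is long (9332 nt), and with an offset that removes the trend of fold change with transcript length and GC content in each library, Trim71 was called lower (log2 fold change -0.26, edgeR adjusted p = 0.00142). A gene-level count does not read the R783H base change, so this does not check the labels.

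Among the 8 genes, 4 fell in R783H cells (Lin28a, Lin28b, Hmga1 and Igf2bp1), 3 rose (Hmga2, Igf2bp2 and Igf2bp3) and Arid3a did not pass the test. The groups did not overlap in 7 of the 8, beside 68.1% of all tested genes. The share called, 7 of 8, is read against a background in which 64.5% of genes were called, and the median log2 fold change of the 8 was -0.08. Both Lin28 genes fell, and the changes went both ways within the other families: the more abundant Hmga and Igf2bp paralogs in WT cells, Hmga1 and Igf2bp1, fell, and Hmga2, Igf2bp2 and Igf2bp3 rose. In bulk libraries, fewer cells with a transcript and less of it per cell cannot be told apart.

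Lin28a (Entrez 83557, chr4:134003330-134019196, minus strand), the LIN28 paralog typical of embryonic stem cells, was at 375.8, 374.1 and 376.7 CPM in WT replicates A, B and C. In R783H replicates A, B and C it was at 172.4, 171.9 and 176.6 CPM. The libraries within each group lay within a few CPM of each other, and the groups were far apart. The mean fell from 375.5 ± 1.34 to 173.6 ± 2.60 CPM, a level 2.16-fold lower (log2 fold change -1.11, SE 0.04, edgeR adjusted p = 1.19e-08). A change of at least this size in either direction was seen in 7.01% of tested genes.

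Lin28b (Entrez 380669, chr10:45376617-45486314, minus strand), its paralog with the same cold-shock and zinc-knuckle domains, was far less abundant and rests on 167 to 221 counts per library. Its levels were 8.52, 8.48 and 8.95 CPM in WT and 6.45, 5.88 and 7.46 CPM in R783H. All R783H libraries were below all WT libraries, and the R783H libraries were spread more widely. The mean fell by 23.6%, from 8.65 ± 0.263 to 6.60 ± 0.798 CPM (log2 fold change -0.39, SE 0.11, edgeR adjusted p = 0.00724). With the length and GC offset, the log2 fold change of Lin28b was -0.62 (edgeR adjusted p = 1.26e-05).

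Per kb of transcript, Lin28a made up 98.5% ± 0.0399 (SD, n = 3) of the Lin28 pair in WT and 97.6% ± 0.249 in R783H, so its paralog stayed a small share in both. The summed level of the pair was 108.7 ± 0.422 CPM per kb in WT and 50.8 ± 0.885 in R783H. The ratio of Lin28b to Lin28a was 0.0149 in WT and 0.0246 in R783H, a log2 difference of 0.72. It was taken without the length and GC offset, with which the log2 fold changes of Lin28b and Lin28a were -0.62 and -1.19. The ranges of this ratio did not overlap (exact two-sided permutation test, p = 0.1, also 0.1 after adjustment over the 4 paralog ratios tested, the smallest value that 3 against 3 libraries can give).

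The genes whose levels over the 6 libraries lay closest to those of Lin28a, by Euclidean distance of centred log2 CPM among 11689 genes with a mean of at least 50 counts, were Dut (distance 0.105), Rangrf (0.111) and Slc39a14 (0.124). Dut, which encodes the dUTPase that keeps uracil out of DNA, had a log2 fold change of -1.07. Those closest to Lin28b were Slc30a1 (0.0734), a zinc exporter, Sbds (0.0799), a ribosome maturation factor, and Tnfrsf19 (0.0892), a receptor of the TNF receptor superfamily. With 6 libraries in 2 groups, likeness here is mostly likeness of the group difference.

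**Figure D2:**
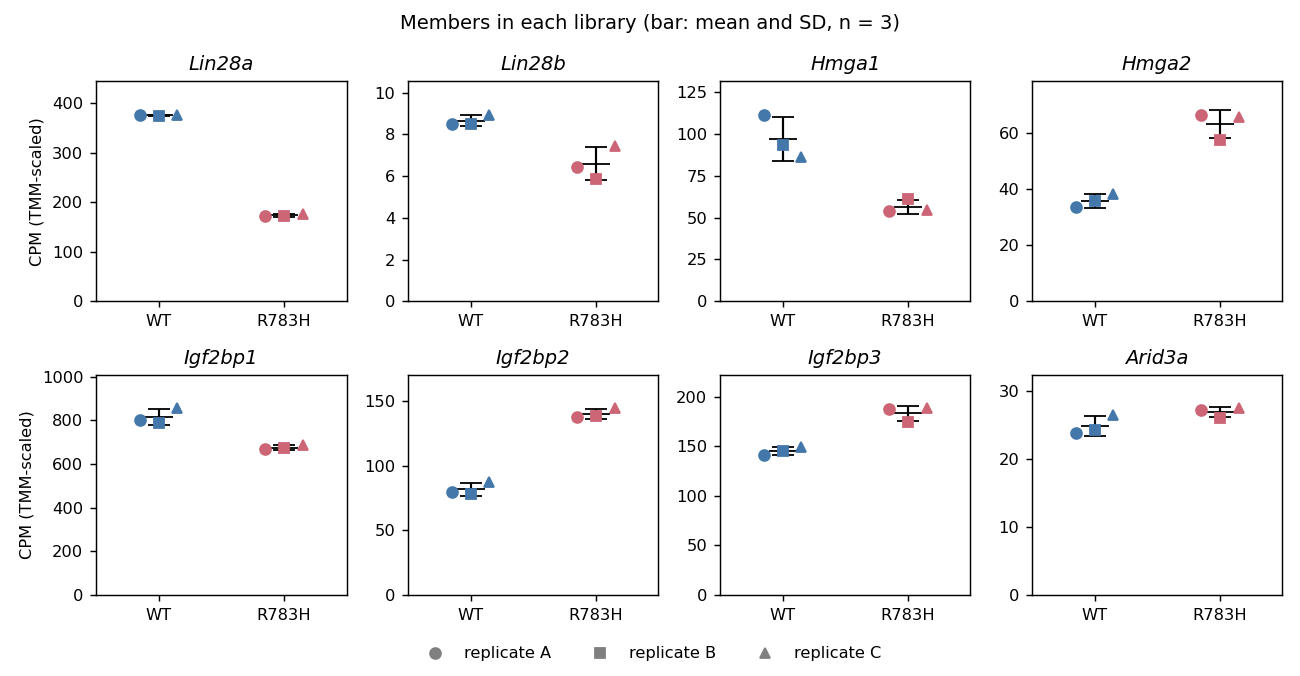
Levels of the 8 genes in each library, in TMM-scaled CPM on linear axes that start at 0; circles, squares and triangles are replicates A, B and C, WT in blue and R783H in red, with the mean and SD of each group of 3. The groups overlap for Arid3a and for none of the other 7 genes, and Lin28a falls from 375.5 to 173.6 CPM.

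The Hmga genes encode high mobility group proteins that bend AT-rich DNA and alter chromatin, and Hmga2 is the textbook let-7 target. Hmga1 (Entrez 15361, chr17:27556574-27563672, plus strand) was at 111.5, 93.3 and 86.0 CPM in WT and at 53.9, 61.2 and 54.3 CPM in R783H. The WT libraries differed among themselves, with replicate A highest, but the lowest (86.0 CPM) was above the highest R783H library (61.2 CPM). The mean fell by 41.7%, from 96.9 ± 13.2 to 56.5 ± 4.11 CPM (log2 fold change -0.78, SE 0.09, edgeR adjusted p = 1.66e-05).

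The Hmga1 count is uncertain because a second annotated gene, Hmga1b, is 99.8% identical to it over 1538 nt, and how reads that fit both were counted is not given in the sources used here. Hmga1b had the larger count, 565.5 ± 10.3 CPM in WT and 353 ± 23.9 in R783H, and it fell as well (log2 fold change -0.68, SE 0.05, edgeR adjusted p = 8.47e-07). With the counts of both rows added, an alternative chosen after seeing the data, the log2 fold change was -0.69 (edgeR adjusted p = 9.06e-07).

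Hmga2 (Entrez 15364, chr10:120361268-120476469, minus strand) was at 33.5, 35.6 and 38.2 CPM in WT and at 66.5, 57.4 and 65.9 CPM in R783H. The lowest R783H library was above the highest WT library. The mean rose 1.77-fold, from 35.8 ± 2.35 CPM to 63.3 ± 5.07 CPM (a log2 fold change 0.82, SE 0.07, edgeR adjusted p = 2.12e-06). Since its paralog fell, the ratio of Hmga2 to Hmga1 per kb went from 0.197 to 0.593, a 3.02-fold difference (log2 difference 1.60, exact two-sided permutation p = 0.1, the smallest possible here). That ratio rests on the Hmga1 row and shares its uncertainty. It was also taken without the length and GC offset, with which the log2 fold changes of Hmga2 and Hmga1 were 0.72 and -0.60.

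IGF2BP1, IGF2BP2 and IGF2BP3 are cytoplasmic RNA-binding proteins that stabilise, localise and regulate the translation of mRNAs, IGF2 mRNA among them. Igf2bp1 (Entrez 140486, chr11:95957163-96005944, minus strand) was the most abundant of the 8 genes in CPM, with 803, 786 and 855 CPM in WT and 668, 673 and 687 CPM in R783H. It fell by 17.0%, from 814.9 ± 35.9 to 676 ± 9.72 CPM (log2 fold change -0.27, SE 0.04, edgeR adjusted p = 2.33e-04), with no overlap. Its transcript is the longest of the 8 (8378 nt), and with the length and GC offset its log2 fold change was -0.56 (edgeR adjusted p = 5.97e-10), more than 1.5 times as large.

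Igf2bp2 (Entrez 319765, chr16:22059009-22163299, minus strand) was at 79.6, 78.1 and 87.4 CPM in WT and at 137.5, 138.3 and 144.3 CPM in R783H. All R783H libraries were well above all WT libraries. It rose 1.71-fold, with means of 81.7 ± 4.96 and 140.0 ± 3.70 CPM (log2 fold change 0.78, SE 0.05, edgeR adjusted p = 4.10e-07). IGF2BP2 is the member of the family that stays expressed in many adult tissues.

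Igf2bp3 (Entrez 140488, chr6:49085218-49215469, minus strand) was at 141.6, 145.6 and 149.6 CPM in WT and at 187.2, 174.4 and 188.1 CPM in R783H. The rise was smaller than that of Igf2bp2 but the groups did not overlap. Its mean rose by 25.8%, from 145.6 ± 3.98 to 183.2 ± 7.68 CPM (log2 fold change 0.33, SE 0.05, edgeR adjusted p = 8.32e-05), and with the length and GC offset its log2 fold change was 0.20 (edgeR adjusted p = 5.33e-05). Igf2bp3 shares 1529 nt of exon with Malsu1 on the opposite strand. The use of strand in counting is not given in the sources used here. Shorter overlaps with exons on the opposite strand were annotated for Lin28a (Gm13061, 234 nt) and Hmga2 (1700006J14Rik, 140 nt). The same holds for Hmga1 (AI413582, 102 nt) and Igf2bp1 (Gm29202, 43 nt). Malsu1 had 23.2 ± 0.664 CPM in WT and a lower 17.4 ± 1.16 CPM in R783H (log2 fold change -0.42, SE 0.07, edgeR adjusted p = 2.95e-04), the opposite direction to Igf2bp3.

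Because these changes went in opposite directions, the summed level of the Igf2bp family per kb overlapped between groups. It was 148.9, 147.4 and 158.9 CPM per kb in WT and 158.1, 156.0 and 162.3 in R783H. The sum, and the shares and ratios that follow, were taken without the length and GC offset. With that offset the log2 fold changes of Igf2bp1, Igf2bp2 and Igf2bp3 were -0.56, 0.68 and 0.20, and whether the sums would still overlap was not tested. The makeup of the family differed. Igf2bp1 made up 64.1% ± 0.378 of the sum in WT and 50.8% ± 0.610 in R783H. The share of Igf2bp2 was 13.8% ± 0.265 and 22.6% ± 0.265, and that of Igf2bp3 was 22.1% ± 0.560 and 26.6% ± 0.767. The ratio of Igf2bp2 to Igf2bp1 went from 0.215 to 0.445 (log2 difference 1.05) and that of Igf2bp3 to Igf2bp1 from 0.345 to 0.523 (log2 difference 0.60), each with an exact two-sided permutation p of 0.1, the smallest possible, and no overlap.

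Arid3a (Entrez 13496, chr10:79927043-79955018, plus strand), a DNA-binding protein of the AT-rich interaction domain family, was the member that did not pass the test. It was at 23.8, 24.2 and 26.4 CPM in WT and at 27.1, 26.0 and 27.4 CPM in R783H. The lowest R783H library lay below the highest WT library. The means were 24.8 ± 1.43 and 26.8 ± 0.703 CPM (log2 fold change 0.11, SE 0.06, edgeR adjusted p = 0.134), and the value was -0.04 with the length and GC offset and 0.20 with scaling by library size alone (edgeR adjusted p = 0.602 and 0.0198).

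**Figure D3:**
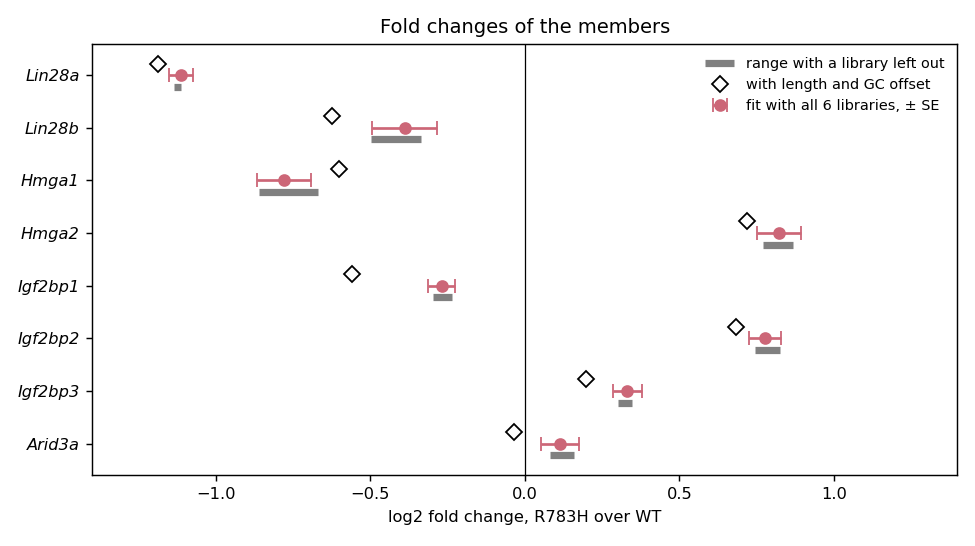
Log2 fold change, R783H over WT, of the 8 genes: red points with bars are the edgeR estimate ± SE from 6 libraries, grey bars the range when each library is left out in turn, and open diamonds the estimate with a length and GC offset. The 7 called genes stay on 1 side of 0 in each of these, while the diamond of Arid3a (-0.04) lies across 0 from its estimate of 0.11.

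Levels of different genes were compared per kb of the longest protein-coding transcript. In WT the order was Lin28a (107.1 ± 0.382 CPM per kb), Igf2bp1 (97.3 ± 4.28), Hmga1 (48.4 ± 6.58), Igf2bp3 (33.5 ± 0.917), Igf2bp2 (20.95 ± 1.27), Hmga2 (9.39 ± 0.616), Arid3a (4.63 ± 0.267) and Lin28b (1.60 ± 0.0486). In R783H, Igf2bp1 came first (80.7 ± 1.16 CPM per kb), then Lin28a (49.5 ± 0.742), Igf2bp3 (42.2 ± 1.77), Igf2bp2 (35.9 ± 0.950), Hmga1 (28.2 ± 2.06), Hmga2 (16.6 ± 1.33), Arid3a (5.01 ± 0.131) and Lin28b (1.22 ± 0.148). Neighbours in each order did not overlap over the 3 libraries. Among the genes other than Hmga1, Lin28a gave its first place to Igf2bp1. The places of Hmga1, above Igf2bp3 and Igf2bp2 in WT and below them in R783H, rest on its uncertain row: the near-identical Hmga1b was at 347.8 ± 6.32 CPM per kb in WT and 217.2 ± 14.7 in R783H, so both rows together would stand first in both groups.

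Other let-7 targets, a list of 37 genes of which 35 were tested, also moved both ways: 14 rose, 11 fell and 10 did not pass. Over all tested genes, 33.5% were called higher and 30.9% lower. The median log2 fold change of the list was 0.03, the same as over all tested genes. The length and GC offset turned this split to 9 higher and 18 lower and the median to -0.14. The list held Trim71, the gene in which the groups differ. Its value was the median without the offset, where it did not pass. With the offset, Trim71 was among those called lower (log2 fold change -0.26). Over all 13067 genes fitted with the offset, 4110 were called higher and 4913 lower, and the median was -0.03. Myc, the proliferation-driving transcription factor, fell from 65.4 ± 2.33 to 19.96 ± 1.11 CPM (log2 fold change -1.71, SE 0.06, edgeR adjusted p = 1.19e-08). Ccnd2, encoding cyclin D2, fell from 3.83 ± 0.882 to 1.56 ± 0.482 CPM (-1.29, SE 0.23, adjusted p = 4.75e-04 by edgeR). Onecut2, a homeobox transcription factor, rose from 1.19 ± 0.174 to 3.60 ± 1.27 CPM (1.59, SE 0.28, adjusted p = 4.67e-04 by edgeR). All 3 are changes larger in log2 terms than that of Lin28a, with those of Onecut2 and Ccnd2 at low counts.

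Of 14 genes for the maturation and turnover of let-7, 6 rose, 7 fell and 1 did not pass, where 33.5% of all tested genes were called higher and 30.9% lower. The median log2 fold change of the 14 was -0.04, or -0.22 with the length and GC offset. Over all genes these medians were 0.03 and -0.03. Tut7, encoding 1 of the uridyltransferases that LIN28 recruits, rose in R783H, with 38.1 ± 1.90 CPM in WT and 60.0 ± 7.38 CPM in R783H (log2 fold change 0.66 with SE 0.08, edgeR adjusted p = 4.30e-05). Msi1, encoding the RNA-binding protein Musashi 1, rose from 19.8 ± 0.851 to 37.2 ± 0.950 CPM (0.91, SE 0.06, edgeR adjusted p = 3.39e-07). Tarbp2, a partner of Dicer, fell from 56.8 ± 4.21 to 34.5 ± 1.05 CPM (-0.72, SE 0.06, edgeR adjusted p = 2.22e-06). Mature let-7 was not measured, since poly(A) selection does not retain it. The 13 let-7 precursor and host genes with a row in the table had at most 9 counts in any library and none was tested. Mirlet7d had 3, 1 and 0 counts in WT and 6, 9 and 5 in R783H, which is too few to compare.

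The paralog list outside the members held Arid3b, Arid3c and Hmga1b, and Hmga1b (above) was the 1 of 2 tested that was called. Of 8 genes listed for the insulin-like growth factor axis, 7 were tested and 6 rose, where 33.5% of all tested genes were called higher. The other, Igf2, did not pass. The median log2 fold change was 0.88, which is the value of H19. That gene is 1 of the 6, gives a non-coding RNA and had 33 to 95 counts per library. With the length and GC offset 5 were called higher and 1 lower, and the median was 0.63. Insr and Igf1r also stand on the list of other let-7 targets, so these lists share genes. Irs1, an adaptor of insulin and IGF1 receptors, went from 0.420 ± 0.162 to 1.24 ± 0.384 CPM (1.54, SE 0.35, edgeR adjusted p = 0.00243). Its counts were low, with 10, 13 and 5 in WT. With at least 10 counts required in every library, 5 genes of the list were called higher and 1 lower, and the median was 0.72. Insr, the insulin receptor, rose from 13.5 ± 1.34 to 28.2 ± 2.54 CPM (1.07, SE 0.09, edgeR adjusted p = 1.95e-06). Igf2r, the receptor that clears IGF2, rose from 88.4 ± 1.87 to 169.2 ± 5.57 CPM (0.94, SE 0.04, edgeR adjusted p = 6.06e-08). Igf2 itself had 23, 18 and 24 counts in WT and 15, 14 and 24 in R783H (log2 fold change -0.71, SE 0.29, edgeR adjusted p = 0.0532, unadjusted p = 0.0346).

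**Figure D4:**
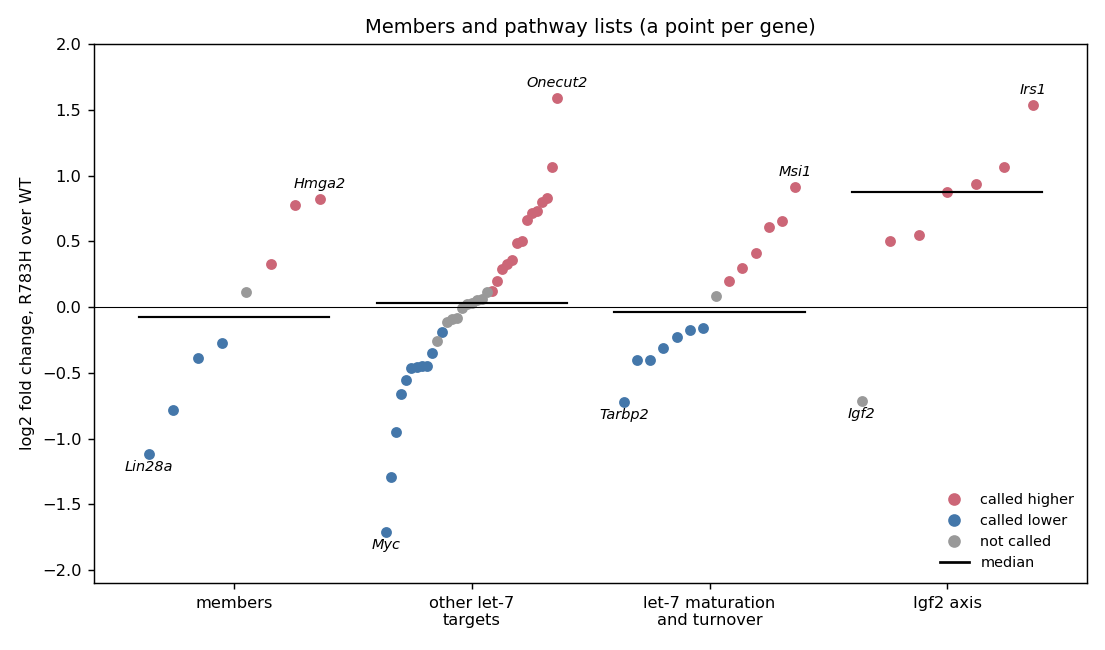
Log2 fold change, R783H over WT, of each tested gene of the 8 members, the other let-7 targets, the let-7 maturation and turnover genes and the Igf2 axis, in rank order within each list; red and blue points were called higher and lower, grey points were not called, and black lines are medians. The first 3 lists straddle 0, with medians of -0.08, 0.03 and -0.04, and the median of the Igf2 axis, H19 included, is 0.88.

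Across the transcriptome, genes were grouped by the number of 7-base let-7 matches in their 3′ UTR. The median log2 fold change was 0.02 for the 11462 genes with 0 matches, 0.06 for 1210 with 1, 0.01 for 146 with 2 and 0.12 for 26 with 3 or more. Lin28b, Hmga2 and Igf2bp1 belong to the last group, as does Trim71. Of its 26 genes, these members included, 42.3% were called higher and 23.1% lower, beside 33.4% and 32.5% of the genes with 0 matches. The median of this small group had an SD of 0.12 over the R783H libraries, about as large as the median itself. Counted by 8-base matches, 7 genes had 3 or more, with a median of 0.05, and 28.6% were called higher and 14.3% lower. Genes with a match had longer 3′ UTRs (median 2318 nt against 1037 nt), and fold change rose with transcript length across 13067 genes (Spearman rho 0.267, across genes that share the same libraries). With the length and GC offset the 4 medians were -0.03, -0.05, -0.16 and -0.05. The 8 members span -1.11 to 0.82. Single genes vary far more than such medians: genes with 0 matches ran from -0.83 to 1.02 between their 5th and 95th percentiles.

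**Figure D5:**
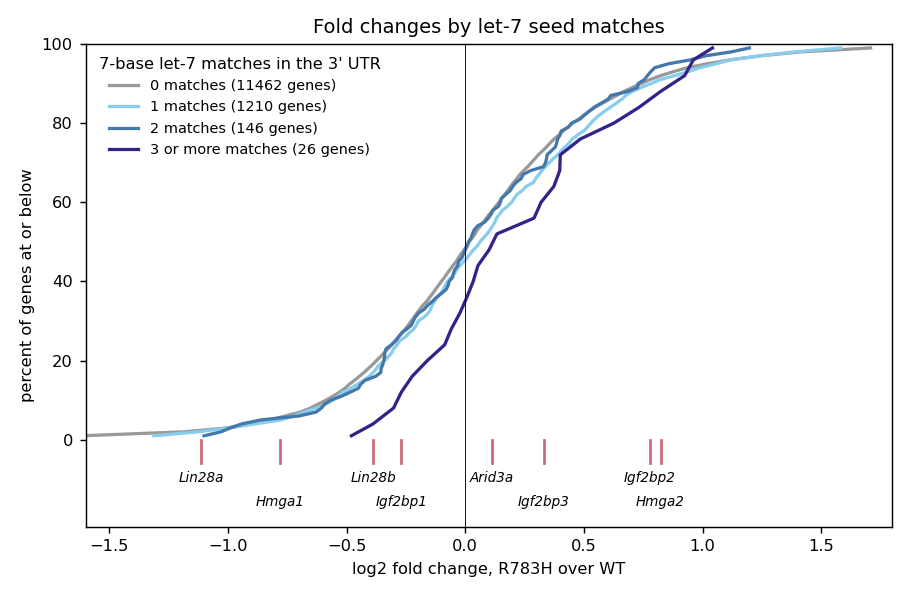
Cumulative percent of tested genes at or below each log2 fold change, R783H over WT, for genes with 0, 1, 2 and 3 or more 7-base let-7 matches in the 3′ UTR (11462, 1210, 146 and 26 genes); red ticks mark the 8 members. The first 3 curves lie close together, with medians of 0.02, 0.06 and 0.01, the curve of the 26 genes has a median of 0.12, and the members are spread over the whole range from -1.11 to 0.82.

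Markers of the labelled cell type and of others that cultures of stem cells can hold were read in the same libraries. The counts called are read against the 33.5% of all tested genes called higher and the 30.9% called lower. The 10 pluripotency markers were all tested, 3 rose, 3 fell and 4 did not pass, and their summed level overlapped between groups (7688 to 7769 CPM in WT and 7597 to 7744 in R783H), with Zfp42 at -0.36 and Dppa5a at 0.30 log2 fold change. Of 8 tested formative and primed markers, 3 rose and 4 fell (287 to 292 against 258 to 272 CPM), among them Otx2 at 2.04 and Fgf15 at -2.40. Of 5 tested primitive endoderm markers 2 rose, Sox17 (1.29) and Gata4 (1.08), with a summed level of 5.18 to 7.62 CPM in WT and 10.3 to 11.1 in R783H. Sox7, on the same list but too low to be tested, lay the other way, with 15, 9 and 19 counts in WT and 3, 2 and 4 in R783H. Of 4 tested neural markers 2 rose and 1 fell (34.2 to 34.3 against 36.2 to 39.9 CPM), Map2 at 0.96 and Neurod1 at -1.01, the latter not called by DESeq2 (adjusted p = 0.0825). Of 4 tested fibroblast markers 1 rose and 1 fell (10.84 to 11.82 against 11.85 to 11.95 CPM, nearly touching), Pdgfrb at 0.30 and Thy1 at -2.74. Some of these large changes rest on few counts: Thy1 had 2, 7 and 8 in R783H, and Fgf15 had 7, 10 and 13. Sox17 had 9, 7 and 8 counts in WT, and Neurod1 had 16, 6 and 7 in R783H. The Pdgfrb call was lost with DESeq2 (adjusted p = 0.0618) and with the length and GC offset (edgeR adjusted p = 0.134). Postn had 0 counts in 5 of 6 libraries. The summed levels of all marker lists but the pluripotency markers did not overlap between the groups. Neither did the CPM ranges of 68.1% of all tested genes. Single genes made up most of some sums in WT, where Dnmt3b, a formative and primed marker, was at 210.2 CPM. Pdgfrb was at 7.59 CPM in WT, most of the fibroblast sum. The part of these cell types in the members' changes was not tested.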

How the data were processed

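The authors deposited 1 table of read counts per gene for 6 libraries, with Entrez identifiers. Per the submitters' processing notes, CASAVA 1.4, HISAT2 and SAMtools were used with the build mm10. The counting tool, annotation and use of strand are not given in the sources used here. The deposited counts are whole numbers with different library totals and were used as raw counts, with 0 columns unassigned. Symbols came from a RefSeq gene table of GRCm38.p6 (25275 of 27179 identifiers matched, 6989 had no count), and transcripts, 3′ UTRs and lengths from GENCODE M21 on GRCm38. Near-identical copies were searched with BLAST 2.17.0.

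Genes were filtered with filterByExpr (minimum count 10, minimum total 15), scaled with TMM and tested with edgeR 4.0.16 in R 4.3.3 (quasi-likelihood test, group as the single term, Benjamini-Hochberg adjustment over 14199 genes, called below 0.05). The SE is the log2 fold change divided by the square root of F. limma 3.58.1, DESeq2 1.42.0, other scalings and filters, thinning to 20894277 counts, leaving out each library, a replicate block and an offset for length and GC content (mgcv 1.9.3, 13067 genes with both values) were alternatives. The fit was tested on simulated counts. Limits of 3 counts cover counting error only. The biological coefficient of variation was 5.45%.

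The 8 genes and all lists were chosen with earlier results of these data known. Genes named were the 8, Trim71, the 3 called genes of each pathway list and 2 of each marker list with the largest change, and the 3 nearest in pattern to Lin28a and to Lin28b. Igf2, H19, Mirlet7d, Sox7, Postn, Dnmt3b and Malsu1 were named after their values were seen. Other genes with exons opposite the members were named from the annotation. Protein sequences were not used here.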

Additional observations from a re-analysis of the deposited data

How the results depend on the processing

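All 7 called members kept their direction and call in each of 18 alternatives, 17 planned and 1 (Hmga1 and Hmga1b summed) chosen after seeing the data. Arid3a became called at 0.20 with library size alone (edgeR adjusted p = 0.0198) and was at -0.0355 with the length and GC offset and -0.0361 with the replicate block added to it; the cause was not tested. Leaving out each library in turn gave -1.14 to -1.11 for Lin28a, -0.50 to -0.34 for Lin28b and 0.08 to 0.16 for Arid3a.

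The median of the other let-7 targets was -0.14 with the offset, with or without the block, and -0.0219 to 0.0771 with a library left out. That of the maturation genes was 0.0441 with library size alone, and that of the paralogs 0.11 with the Hmga1 rows summed, which leaves Arid3b alone. The seed-group medians with the offset were -0.0309, -0.0481, -0.16 and -0.0524. Igf2 was called lower in 8 of the alternatives, the replicate block among them. The genes called over the whole table were 4161 to 4969 higher and 3906 to 4913 lower with a library left out.

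Deviations from the group mean correlated at -0.07, 0.01 and 0.09 between same-letter libraries, and at -0.13 to 0.13 between libraries of different letters. With 3 libraries per group, centred on their own mean, these values cannot settle whether the letters A, B and C pair libraries. With the replicate block, Lin28b was at -0.39 (edgeR adjusted p = 0.00472), Arid3a at 0.11 (0.148), and 4839 genes were called higher and 4421 lower. The exact test of each paralog ratio could not go below 0.1 at 3 against 3, and its paired form not below 0.25. The ratios were not computed with the length and GC offset. Among the 8 genes, Lin28b rests on the fewest counts.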

Other observations

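Longer 3′ UTRs hold more let-7 matches, so the genes were also split by 3′ UTR length, a comparison chosen after seeing the data. In 3′ UTRs of up to 1000 nt the median log2 fold change was -0.07 for 5588 genes with 0 matches and -0.09 for 234 with at least 1. From there to 2000 nt the medians were 0.04 (2913 genes) and 0.01 (358), from 2000 to 3000 nt 0.11 (1497) and 0.05 (270), and above 3000 nt 0.19 (1464) and 0.17 (520). Genes with a match were thus below those without in every band, the opposite order to the medians without the split, 0.06 and 0.02. With the length and GC offset, the medians without the split already had the order of the bands, -0.06 with a match and -0.03 without. In the bands, the medians with the offset were -0.0287 and -0.0348 (0 and at least 1 match), -0.0236 and -0.0273, -0.0309 and -0.0520, and -0.0497 and -0.1003. The difference within a band was not tested. Of the 8 members, Lin28b, Hmga2, Igf2bp1 and Arid3a fall in the last band.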
